A study of Mus musculus with 12 samples.

Results

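The genes of the canonical high mobility group (HMG) chromatin proteins were examined: Hmgn1, Hmgn2, Hmgn3, Hmgn5, Hmgb1, Hmgb2, Hmgb3 and Hmga1. They are 8 of the 25239 gene symbols in the deposited count table. The members were chosen by name and by measured values, because Hmgn2 was higher in the heat-stressed brain, so every difference between heat stress and control in brain is given for them as a description without a test. RNA was sequenced from whole pieces of brain and liver of male wild type C57BL/6J mice, all of them 24 months old when the exposure began and killed at 24 months and 16 days. The heat stress mice were kept at 40 ± 0.5 °C and 60 ± 5% relative humidity for 3 hours a day over 15 days, and the control mice were not exposed. Each of the 4 groups (brain control, brain heat stress, liver control, liver heat stress) held 3 libraries from 3 mice, and all mice shared strain, sex and age. The libraries were made from poly(A) RNA.

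The HMG proteins are small, abundant proteins that bind chromatin and change its shape without being histones. HMGN proteins bind the nucleosome itself through a short conserved core and compete with linker histone H1. HMGB proteins carry a pair of HMG boxes that bend DNA and an acidic tail, and HMGB1 that leaves a stressed or dying cell acts as an alarm signal on immune receptors. HMGA proteins bind the minor groove of AT-rich DNA through AT hooks and are known mainly from embryos and tumors.

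The sequences that make a member what it is, and that decide whether its reads can be told from those of a relative, were read from the reference. The coding bases of the nucleosome-binding core, which spans 8 residues and encodes the same amino acids in all 4 HMGN members, are shown 5′ to 3′ with capitals at the bases that differ from Hmgn2 (GENCODE M21 transcripts on the mm10 build):

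Hmgn2: agaagatctgcgaggttgtctgct

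Hmgn1: CgCCgCtcCgcgaggCtgtcGgcC

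Hmgn3: agaCgGtcGgcCaggttgtcCgcG

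Hmgn5: agaagatcAgcCCgACtgtctgct

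Hmgn1 differed from Hmgn2 at 8 of these bases, Hmgn3 at 6 and Hmgn5 at 5, although the protein motif is the same. The longest run of identical bases between any pair of members was 27, between Hmgb1 and Hmgb3. Hmgn2 shared at most 19 bases with another member, Hmgn5, and the reads were 100 bases long, so a read of one member could not be mistaken as a whole for another member. In their longest coding transcripts, the HMGB members differed in the unbroken run of acidic residues at the C terminus, which was 30 residues long in Hmgb1, 23 in Hmgb2 and 20 in Hmgb3. Hmgn5, whose long acidic tail sets it apart among the HMGN proteins, had 37.93% acidic residues over its 406 residues.

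Copies elsewhere in the genome shared longer stretches of sequence with all members but Hmgn3 than the members shared with each other; how many reads this touched was not measured. Of the windows of 100 bases along the longest coding transcript, 47.0% in Hmgn2 also occurred in another annotated gene, as did 59.9% in Hmga1, 28.3% in Hmgb1, 20.0% in Hmgb2, 18.3% in Hmgb3, 13.3% in Hmgn5, 2.5% in Hmgn1 and 0.0% in Hmgn3. Hmgb1 had 69 other genes with a stretch of at least 100 bases at 95% identity or more, and Hmgn2 had 12, of which 10 were annotated as pseudogenes. Among all these copies, rows of the count table exist for Hmgb1-rs17, with at most 1 count in a library, and Hmga1b, with 0 counts in all 12 libraries. How the counting treated reads that fit several places is not given in the sources used here. The levels of Hmgn2, Hmga1 and Hmgb1 are uncertain to that extent. So are those of Hmgb2, Hmgb3 and Hmgn5, with a smaller share of windows. Hmgn3 and Hmgn1 are nearly free of this limit.

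The members lie apart in the genome. On mm10, Hmgn2 is at chr4:133964738-133968650 on the minus strand, Hmgn1 at chr16:96120618-96127729 (minus), Hmgn3 at chr9:83109948-83146685 (minus) and Hmgn5 at chrX:109004534-109013404 (minus). Hmgb1 is at chr5:149046702-149184489 (minus), Hmgb2 at chr8:57511907-57515999 (plus), Hmgb3 at chrX:71555918-71560676 (plus) and Hmga1 at chr17:27556497-27563674 (plus). All 8 are annotated as protein coding.

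The promoters of Hmgn2 and Hmgb3, the members with the closest match in level over the brain libraries (below), are shown as the 250 bases before the start site on the gene's strand (RefSeq, GRCm38.p6). The Hmgn2 window lies inside the gene span given above, so that annotation also has a start upstream of it. Capitals mark CCAAT boxes (CCAAT) and GC boxes (GGGCGG) on either strand, the latter reading CCGCCC on the opposite strand.

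Hmgn2, chr4:133967992-133968241, minus strand: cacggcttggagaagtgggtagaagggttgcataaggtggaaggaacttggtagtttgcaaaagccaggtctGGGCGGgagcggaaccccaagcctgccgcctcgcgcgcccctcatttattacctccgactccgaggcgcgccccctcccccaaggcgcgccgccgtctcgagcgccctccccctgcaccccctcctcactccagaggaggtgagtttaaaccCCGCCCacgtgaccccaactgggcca

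Hmgb3, chrX:71555667-71555916, plus strand: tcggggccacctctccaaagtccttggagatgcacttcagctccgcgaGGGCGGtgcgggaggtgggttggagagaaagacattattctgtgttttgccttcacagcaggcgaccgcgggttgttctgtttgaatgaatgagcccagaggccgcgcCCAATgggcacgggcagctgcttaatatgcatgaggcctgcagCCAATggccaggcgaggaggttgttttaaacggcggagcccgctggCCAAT

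Promoter entries were found for 7 members, with 2 entries each for Hmgb1 and Hmga1. Both Hmgb1 windows, like that of Hmgn2, lie wholly inside the gene span given above. Over the whole window of 300 bases, their GC content ranged from 56.7% to 77.0%, against a median of 52.7% over 32851 mouse promoters, and they held 20 to 45 CpG dinucleotides against a median of 7. Hmgb2 had 4 CCAAT boxes, Hmgb3 had 3, 1 of the 2 Hmgb1 windows had 3, and Hmgn1 and Hmgn5 had 2 each. Hmgn2 had 1, in the part after the start site that is not printed. At least 1 CCAAT box occurred in 37.4% of all promoters and a GC box in 35.7%. The paired heat shock element units GAANNTTC and TTCNNGAA, searched on both strands, occurred in 7.86% and 8.52% of all promoters and in none of the member windows. These are matches of letters in a window and no measure of binding.

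The libraries held 10466198 to 15609040 counts. Neuronal markers (8 genes, including Rbfox3 and Snap25) summed to between 6850 and 9530 TMM-scaled CPM (counts scaled to a common library size) in the brain libraries and to at most 36.0 in the liver libraries, and hepatocyte markers (8 genes, including Alb and Cps1) to at least 81560 in liver, and the tissues matched their labels. Some markers of brain regions and of other cell types moved with the brain groups, although 0 of their genes had an adjusted p under 0.05 in edgeR's test. Choroid plexus genes summed to between 1240 and 2480 CPM in control and 259 and 1120 in heat stress, endothelial genes to 114 to 225 and 73.5 to 94.2, T and NK cell genes to 5.50 to 7.77 and 9.50 to 22.4, and striatal neuron genes to 371 to 662 and 661 to 1430. The first 3 of these sums did not overlap between the groups, and the striatal sums overlapped. In brain the T and NK cell sum rested mainly on Cd4 (2.18 to 3.73 and 3.65 to 12.8 CPM, scaled over both tissues). Cd2, Cd3d, Cd3e, Cd8a, Gzma and Nkg7 were at 0.25 CPM or less there. The sums overlapped for neurons (6850 to 9530 and 7390 to 7660) and astrocytes (5110 to 7170 and 4870 to 5930). They also overlapped for oligodendrocytes (7080 to 12300 and 8850 to 12000) and microglia and macrophages (314 to 415 and 336 to 383). In liver, skeletal muscle genes summed to 341 CPM in control replicate 1 and 1965 in heat stress replicate 2, against at most 6.47 in the others. The liver values of the members are therefore also given without these libraries.

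**Figure D1:**
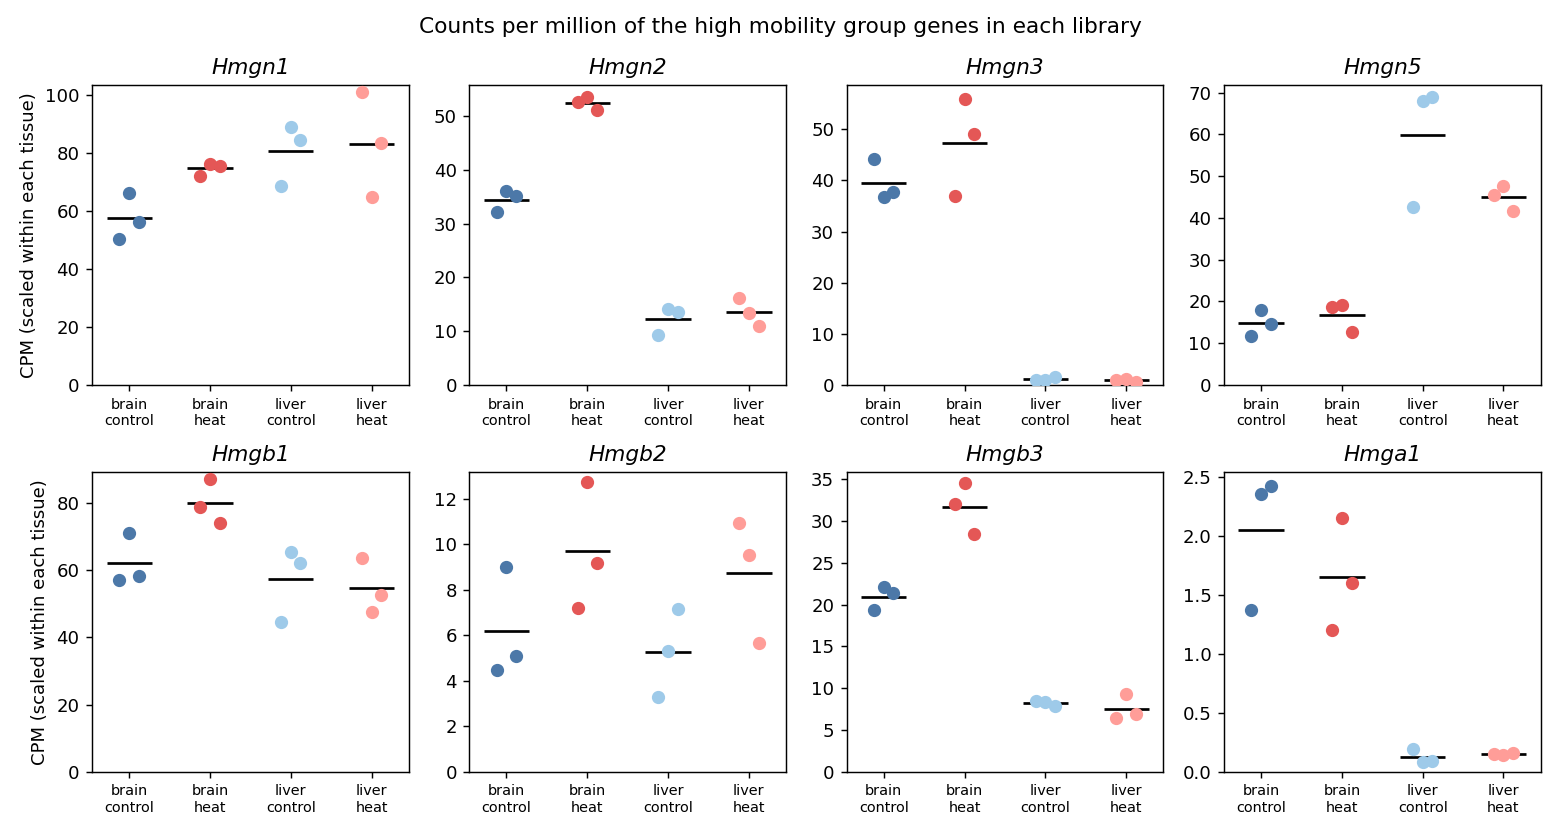
Each point is 1 library and each bar the mean of 3, in CPM on a linear axis from 0, scaled within each tissue. In brain the groups do not overlap for Hmgn1, Hmgn2, Hmgb1 and Hmgb3, and in liver they overlap for all 8 genes.

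Hmgn2, the nucleosome-binding protein for which the set was chosen, stood at 32.2, 36.0 and 35.0 CPM in the brain control libraries and at 52.5, 53.6 and 51.1 CPM in the brain heat stress libraries. All heat stress libraries were above all control libraries. The means were 34.4 ± 1.98 and 52.4 ± 1.24 CPM (SD, n = 3 each), a log2 difference of 0.61 with an SE of 0.10. The SD of the heat stress group was 0.57 times what counting alone gives, and that of the control group 1.20 times; for the other members this ratio reached 4.59 in brain (Hmgn3 under heat stress).

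Hmgn1, another nucleosome-binding member, had 50.4, 66.2 and 56.3 CPM in brain control and 72.3, 76.4 and 75.7 CPM in brain heat stress. The groups did not overlap either, with a log2 difference of 0.38 (SE 0.12). The ratio of Hmgn2 to Hmgn1 counts within a library, which no scaling affects, was 0.639, 0.544 and 0.622 in the controls and 0.727, 0.701 and 0.675 under heat stress. The ratio was higher in every heat stress brain than in any control brain, but the genes differ in length, and with the length and GC correction their log2 differences were 0.27 and 0.23. Hmgn3 had 44.2, 36.8 and 37.7 CPM in the control brains and 37.0, 55.9 and 49.0 CPM with heat stress, and its groups overlapped (log2 difference 0.26, SE 0.16). Hmgn5 overlapped too, with 11.7, 18.0 and 14.6 CPM in the controls against 18.7, 19.1 and 12.7 CPM (0.19, SE 0.21).

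Among the DNA-bending HMGB genes, Hmgb3 had 19.3, 22.1 and 21.4 CPM in brain control against 32.0, 34.5 and 28.4 CPM in brain heat stress. Its groups did not overlap, and its log2 difference of 0.60 (SE 0.12) was close to that of Hmgn2. Hmgb1, the most abundant of the 3, had 57.0, 71.0 and 58.4 CPM without and 78.7, 87.2 and 74.0 CPM with heat stress. Here the lowest heat stress library was only just above the highest control library, and the log2 difference was 0.36 (SE 0.12). Hmgb2, the HMGB gene most closely tied to dividing cells, was low, at 4.46, 8.99 and 5.10 CPM in the controls against 7.20, 12.7 and 9.16 CPM. Its log2 difference of 0.66 was the highest of the 8 but had an SE of 0.31, and the groups overlapped. Markers of proliferating cells summed to 61.3 to 68.9 CPM in control and 65.7 to 74.5 in heat stress, also overlapping. The count ratio of Hmgb3 to Hmgb1 was 0.311 to 0.366 in control and 0.384 to 0.407 in heat stress.

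Hmga1, the AT hook protein, was near the detection limit in brain. It had 20, 27 and 30 counts in the controls against 13, 24 and 17, which is 1.37, 2.36 and 2.43 CPM against 1.20, 2.15 and 1.60. It was the 1 member with a negative log2 difference in brain (-0.30, SE 0.35), and its groups overlapped.

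In brain, 7 of the 8 members had a positive log2 difference, with a member median of 0.37 against -0.003 over the 14806 genes tested. For 4 of 8 the groups did not overlap and heat stress was higher. Over all genes tested, 12.9% were not overlapping and higher, and since this contrast was used in the choice nothing is read from the comparison. Across all genes, edgeR called 0 genes (0%) at an adjusted p under 0.05 in brain, with 2969 at an unadjusted p under 0.05 and 616 by DESeq2 after adjustment.

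**Figure D2:**
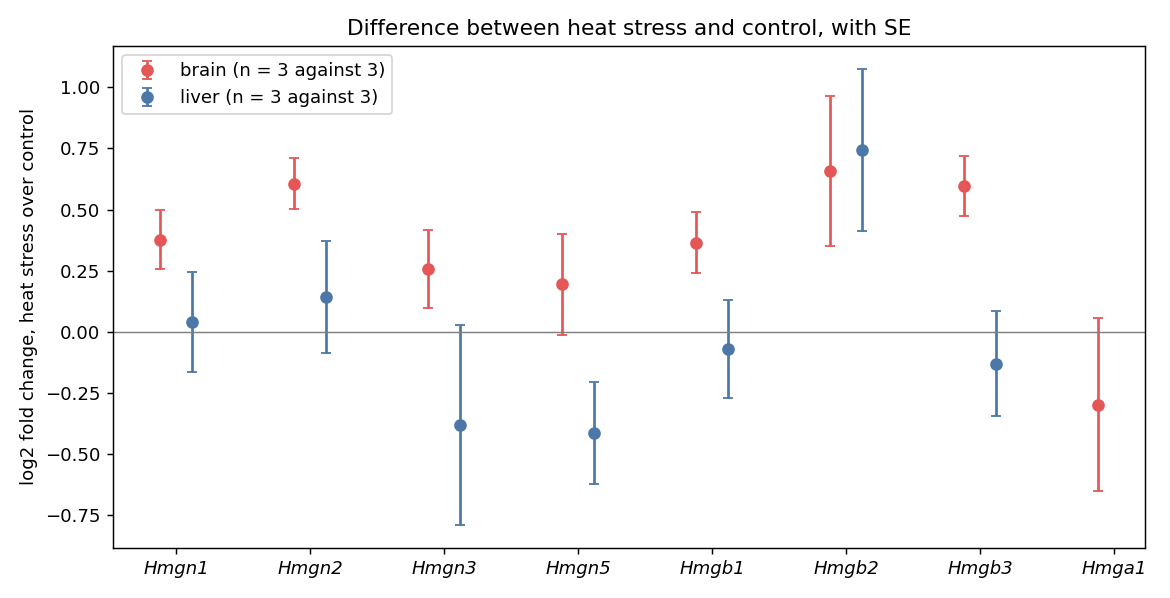
Points give the log2 fold change of heat stress over control and bars the SE, in brain (red) and liver (blue), with 3 libraries against 3. Brain values run from -0.30 for Hmga1 to 0.66 for Hmgb2, and liver values lie on both sides of 0, with no value for Hmga1, which was too low to test there.

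The brain differences moved with transcript length and base composition. Over all genes tested, the median log2 difference was 0.38 for transcripts under 1000 bases (87.1% of genes positive), 0.15 from 1000 to 2000 bases, 0.02 from 2000 to 3000 bases and -0.19 over 6000 bases. It was 0.27 for genes under 40% GC and -0.10 for genes over 55% GC. The members are of short to middle length: the longest coding transcript has 1265 bases in Hmgn2, 1391 in Hmgn3, 1743 in Hmgb3, 1934 in Hmgn5, 2001 in Hmga1, 2174 in Hmgn1, 2628 in Hmgb2 and 2838 in Hmgb1. With each library's trend over length and GC content removed, the log2 difference of Hmgn2 was 0.27 in place of 0.61, that of Hmgb3 0.38 in place of 0.60, Hmgb2 0.32 in place of 0.66, Hmgn1 0.23 and Hmgb1 0.08. Hmgn3 and Hmgn5 then stood at -0.13 and -0.20, below 0. Hmga1, with a GC content of 61.37%, stayed near its first value at -0.28. Leaving out any 1 library without this correction gave 0.56 to 0.64 for Hmgn2, 0.53 to 0.67 for Hmgb3, 0.29 to 0.48 for Hmgn1 and 0.30 to 0.47 for Hmgb1. The other members moved more. Hmgb2 ran from 0.41 (without heat stress replicate 2) to 1.02 (without control replicate 2), and Hmgn3 from 0.12 (without heat stress replicate 2) to 0.40 (without heat stress replicate 1). Hmgn5 ran from 0.05 (without control replicate 1) to 0.36 (without heat stress replicate 3), and Hmga1 from -0.54 (without heat stress replicate 2) to -0.12 (without heat stress replicate 1).

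**Figure D3:**
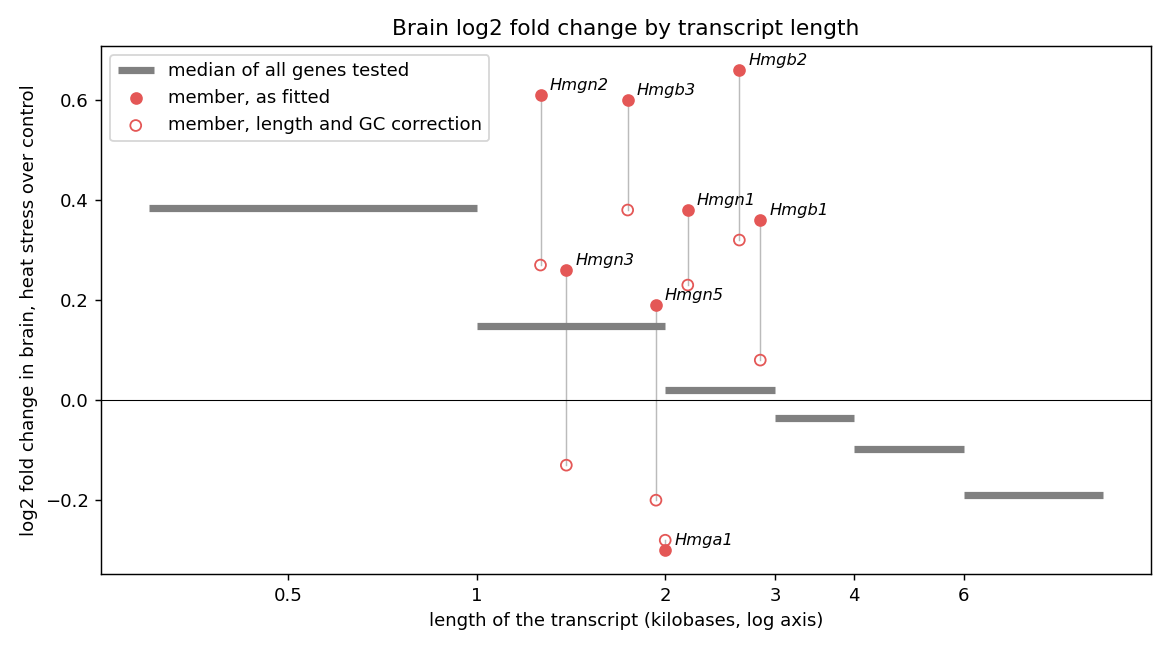
The horizontal axis is transcript length in kilobases on a log scale and the vertical axis the log2 fold change in brain. Grey bars are medians of all genes tested by length, filled points the members as fitted and open points the members after the correction for length and GC content. The filled points of all members but Hmga1 lie above the grey bar of their length, and Hmgn3 and Hmgn5 fall below 0 after the correction.

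The genes whose level followed Hmgn2 most closely over the 6 brain libraries, of 10526 genes compared, were Cfap20 (Pearson r = 0.999), a cilium gene, Rbm3 (0.994), a cold-inducible RNA-binding protein, H2bu2 (0.992), a histone H2B gene, Mrpl58 (0.991), of the mitochondrial ribosome, and 4931406C07Rik (0.987). Rbm3 stood at 94.1, 103.5 and 105.7 CPM in the controls and 166.7, 186.5 and 166.2 under heat stress. Among the members, r with Hmgn2 was 0.980 for Hmgb3, 0.916 for Hmgn1, 0.895 for Hmgb1, 0.737 for Hmgb2, 0.477 for Hmgn3, 0.474 for Hmgn5 and -0.267 for Hmga1. The 6 points share the difference between the groups, so these values describe likeness of level and carry no test.

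Other chromatin genes were read in brain against the 12.9% of all genes tested that were not overlapping and higher, and the 1774 of 14806 that were not overlapping and lower. Of the linker histones that HMGN proteins compete with, 3 of 10 had enough counts in these poly(A) libraries to test. Poly(A) libraries can miss RNA without a poly(A) tail, so low counts of the others do not show low expression, here or below. The groups of the tested ones overlapped, and their median log2 difference was 0.11. H1f2 stood at 0.34 (SE 0.23) and H1f0 at 0.11 (SE 0.11). Leaving out 1 library gave 0.16 (without control replicate 1) to 0.52 (without heat stress replicate 3) for H1f2 and 0.04 (without heat stress replicate 1) to 0.18 (without control replicate 2) for H1f0. Of 8 histone variants, all tested, 3 were not overlapping and higher and 1 lower, with H2az1 at 0.40 (SE 0.13) and H3f3a at 0.52 (SE 0.17) among the higher ones. Of 16 histone chaperones and remodelling partners, 14 were tested and 4 were not overlapping and higher, among them the chaperone Nap1l1 at 0.29 (SE 0.12), while the groups of the nucleolar chaperone Npm1 overlapped (0.55, SE 0.18). With the length and GC correction Nap1l1 stood at 0.09 and Npm1 at 0.17, while H2az1 stood at 0.41 and H3f3a at 0.35. The further HMG-box and HMGA genes had a median near 0: 16 of 19 were tested, their median was -0.09, and 1 was not overlapping and higher, the mitochondrial DNA-packaging protein Tfam at 0.31 (SE 0.14). Hmg20b (-0.09, SE 0.14), Hmgxb3 (-0.26, SE 0.13), Hmgxb4 (0.06, SE 0.11) and the pseudogene Hmga2-ps1 (0.18, SE 0.34) all overlapped. Leaving out 1 library gave 0.20 (without control replicate 1) to 0.45 for Tfam, -0.15 to -0.02 (without control replicate 1) for Hmg20b and 0.04 to 0.09 for Hmgxb4. For Hmga2-ps1 it gave -0.05 to 0.39, so its sign turned. Hmgxb3 stood at 0.01 with the length and GC correction. Hmga2 itself had at most 3 counts in a library, and Hmgb4 had 0 counts in all 12 libraries, which allows at most 3 counts in each.

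Of 15 receptors and redox partners of HMGB1, 13 were tested and 2 were not overlapping and higher, a share near the 12.9% of all genes, 1 of them the peroxidase Prdx1 (0.62, SE 0.20), and the chemokine partner Cxcl12 stood at -0.70 (SE 0.23) with overlapping groups, at -0.48 with the length and GC correction and at -0.41 without control replicate 1. The short, abundant transcripts of cytosolic ribosomal proteins had a median of 0.66, and 59 of 75 tested were not overlapping and higher, with Rpl41 at 0.96 (SE 0.22) and Rpl7a at 0.72 (SE 0.16). Respiratory chain subunits had a median of 0.48, and 47 of 76 tested were not overlapping and higher, with Ndufa2 at 0.76 (SE 0.19) and Ndufb7 at 0.45 (SE 0.11). With the length and GC correction Prdx1 stood at 0.35, Rpl41 at 0.70, Rpl7a at 0.48, Ndufa2 at 0.44 and Ndufb7 at 0.22; the list medians and counts were not corrected. No gene of these lists had an adjusted p under 0.05 in edgeR's quasi-likelihood test, whereas DESeq2 called Rpl41, Rpl7a, Npm1, Prdx1, Ndufa2 and Ndufb7 among those named. In tissue pieces, a change in the number of cells of a type and a change in RNA per cell cannot be told apart. The part of the cell and region markers given above in the brain values was not tested.

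In liver, whose contrast the rule for the members did not use although its results were known from earlier work, no member was called as different between heat stress and control. Of the 7 members tested, 0 had an adjusted p under 0.05 in edgeR's quasi-likelihood test (1, Hmgb2, at an unadjusted p under 0.05, and 0 by DESeq2) and 0 had groups that did not overlap. Over all 12296 genes tested, 0% passed the adjusted threshold (0 genes, with 718 at an unadjusted p under 0.05 and 66 by DESeq2), 5.38% were not overlapping and higher and 5.73% not overlapping and lower. Hmgn2 stood at 9.30, 14.1 and 13.5 CPM in liver control and 16.2, 13.4 and 11.0 in liver heat stress. Its log2 fold change was 0.14 (SE 0.23, adjusted p = 0.967 by edgeR), and it turned to -0.03 without both libraries that held muscle transcripts. Hmgn1 (0.04, SE 0.21), Hmgb1 (-0.07, SE 0.20), Hmgb3 (-0.13, SE 0.22) and Hmgn3 (-0.38, SE 0.41, at 8 to 17 counts in a library) likewise lay within 1 SE of 0. Without both libraries with muscle transcripts they stood at 0.07, -0.15, -0.30 and -0.74 (SE 0.56 for Hmgn3, whose value thus moved most), and none had an adjusted p under 0.05 by edgeR. Leaving out 1 library gave -0.32 (without heat stress replicate 2) to -0.04 (without heat stress replicate 1) for Hmgb3 and -0.63 (without heat stress replicate 2) to -0.15 (without control replicate 3) for Hmgn3.

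Hmgb2 and Hmgn5 had the liver values farthest from 0 with all 6 libraries and no correction. Without the libraries with muscle transcripts Hmgn3 lay farthest, and with the length and GC correction it lay farther than Hmgn5 (-0.33). Hmgb2 had 3.29, 5.30 and 7.18 CPM in the controls against 10.9, 9.55 and 5.68 CPM. The lowest heat stress library fell between the control libraries. The log2 fold change was 0.75 (SE 0.33) with an adjusted p of 0.854 by edgeR's quasi-likelihood test. Its unadjusted p in that test, across all genes fitted by edgeR, was 0.0486, and 2.97% of all genes tested were higher at an unadjusted p under 0.05. The log2 fold change was 0.41 without the libraries that held muscle transcripts and 0.48 without control replicate 1 alone. T and NK cell markers, whose cells express Hmgb2 when they divide, summed to 3.81 to 6.62 CPM in control and 8.85 to 15.6 in heat stress. Endothelial markers summed to 107 to 126 and 129 to 143, also without overlap. The sums overlapped for microglia and macrophage markers (131 to 186 and 168 to 258) and for proliferation markers (49.1 to 65.3 and 52.8 to 59.6). The part of these markers in the value was not tested. Hmgn5 had 42.7, 68.0 and 69.0 CPM in the controls against 45.6, 47.7 and 41.6 CPM. Control replicate 1 was as low as the heat stress libraries, and the log2 fold change was -0.41 (SE 0.21, adjusted p = 0.892 by edgeR). Without that replicate it was -0.62, without it and heat stress replicate 2 -0.67, and with the length and GC correction -0.26. In liver the median log2 fold change was -0.17 for genes under 40% GC, -0.095 from 40% to 45% GC and 0.10 over 55% GC. The longest transcript of Hmgn5 has 40.69% GC. Hmga1 had 1 to 3 counts in a liver library and was not tested.

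The names of 3 liver columns (control replicate 2, heat stress replicates 1 and 3) carry the suffix 2nd, a mark the labels do not explain. Within the columns with the suffix the log2 ratio of heat stress to control was -0.64 for Hmgn5, 0.65 for Hmgb2 and -0.05 for Hmgn2, and within those without it -0.23, 0.87 and 0.23. The difference of the heat effect between the tissues, liver minus brain, ran over the 7 members tested in both from -0.74 (Hmgb3, SE 0.25) to 0.09 (Hmgb2, SE 0.49, and -0.25 to 0.36 leaving out 1 library) and was -0.46 for Hmgn2 (SE 0.24). It contains the brain contrast and was not tested for the members.

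The linker histones, 2 of which were tested in liver, had a median of -0.005 there. Of the HMGB1 receptors and partners, 13 were tested and had a median of 0.18, with the receptor Tlr2 at 1.16 (SE 0.44, adjusted p = 0.799 by edgeR) and Cxcr4 at 0.93 (SE 0.43, adjusted p = 0.863 by edgeR), both at about 1 to 3 CPM. Without both libraries with muscle transcripts these were 0.93 and 0.76, and leaving out 1 library gave 0.75 (without heat stress replicate 1) to 1.54 (without control replicate 2) and 0.59 (without control replicate 1) to 1.30 (without control replicate 3). No gene of either list passed the adjusted threshold.

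The tissues differed in the make-up of their HMG transcripts. The members' levels were set side by side as CPM per kilobase of the longest coding transcript, scaled over both tissues. In control brain, Hmgn3 (19.5 ± 1.99), Hmgn2 (18.6 ± 1.04) and Hmgn1 (18.1 ± 2.42; SD, n = 3) led, and their ranges overlapped. Hmgb1 followed at 15.0 ± 1.76, with a range that overlapped that of Hmgn1, and then Hmgb3 (8.22 ± 0.55), Hmgn5 (5.22 ± 1.08), Hmgb2 (1.61 ± 0.63) and Hmga1 (0.702 ± 0.203), each below the range of the one before. In control liver, Hmgn1 led at 54.6 ± 3.64. Hmgn5 was next at 45.2 ± 8.64 and overlapped Hmgn1 by a small margin, and Hmgb1 (29.6 ± 3.93), Hmgn2 (14.2 ± 2.16), Hmgb3 (6.99 ± 0.73), Hmgb2 (2.91 ± 0.95), Hmgn3 (1.27 ± 0.33) and Hmga1 (0.0927 ± 0.0537) followed without overlap. The order depends on the length used. Per kilobase of all exons of a gene joined, an alternative chosen after the data were seen, Hmgn5 (45.2 ± 8.63) came before Hmgn1 (36.8 ± 2.46) in control liver with overlapping ranges. On that scale Hmgn2 (7.70 ± 0.43) came after Hmgb1 (8.46 ± 0.99) in control brain, also overlapping.

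**Figure D4:**
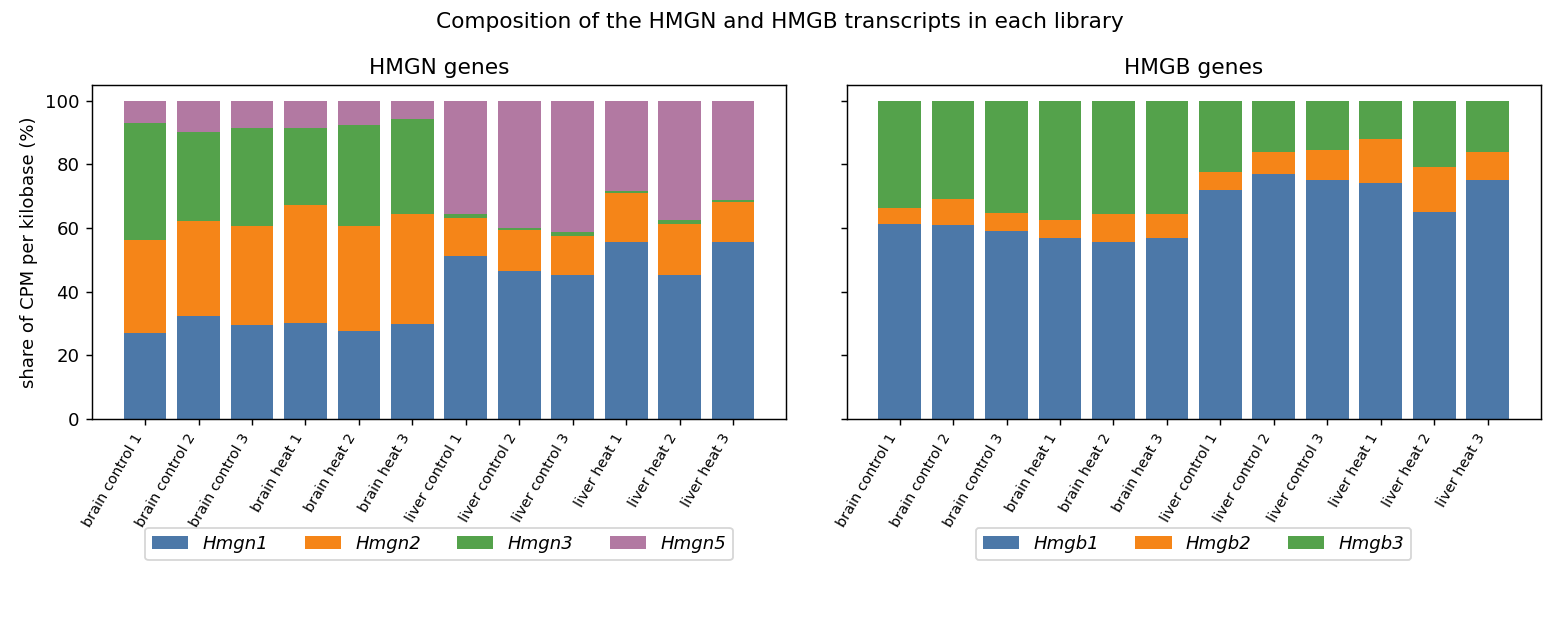
Each bar is 1 library, split by the share of CPM per kilobase (by the longest coding transcript) that each HMGN gene (left) or HMGB gene (right) takes of its class. In the control libraries Hmgn3 takes 27.9% to 36.7% of the HMGN bars in brain and 0.799% to 1.32% in liver, where Hmgn5 takes 35.7% to 41.2%.

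As a share of HMGN transcripts per kilobase, which no scaling between the tissues affects, control brain held 29.4 ± 2.68% Hmgn1, 30.3 ± 0.98% Hmgn2, 31.8 ± 4.48% Hmgn3 and 8.45 ± 1.40% Hmgn5. Control liver held 47.6 ± 3.20% Hmgn1, 12.3 ± 0.39% Hmgn2, 1.11 ± 0.27% Hmgn3 and 39.0 ± 2.90% Hmgn5 (SD, n = 3). None of these 4 shares overlapped between the tissues, and none did per kilobase of joined exons, where Hmgn2 held 19.4 ± 0.71% in control brain and 6.60 ± 0.16% in control liver. Among the HMGB genes, Hmgb1 took 60.4 ± 1.07% in control brain and 74.7 ± 2.65% in control liver, and Hmgb3 took 33.3 ± 2.27% and 18.0 ± 3.84%. Hmgb2 stayed small in both, at 6.35 ± 1.72% and 7.29 ± 1.87%, with overlapping ranges. In the heat stress brain the share of Hmgn2 was 35.0 ± 2.15%, against 33.2% in its lowest library and 31.4% in the highest control library.

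The comparison of control brain with control liver uses the control brain libraries, which entered the contrast behind the choice, so its values are given for the members as a description without a test. Over all genes tested, 42.8% were called higher and 35.5% lower in brain by edgeR at an adjusted p under 0.05. Hmgn3 was 15.4-fold higher in brain (log2 3.94, SE 0.24). Hmgn5 went the other way, with a log2 difference of -3.12 (SE 0.24). Hmgn1 was lower in brain by a log2 difference of -1.60 (SE 0.18) and Hmgb1 by -0.99 (SE 0.19). Hmgb2 stood at -0.86 (SE 0.35) with overlapping groups, and at -0.60 (without liver control replicate 3) to -1.18 (without brain control replicate 2) leaving out 1 library. Hmgn2 stood at 0.38 (SE 0.18) and Hmgb3 at 0.22 (SE 0.18), the latter at 0.16 to 0.34 (without brain control replicate 1) leaving out 1 library. Hmga1 had 77 counts in the 3 control brains and 5 in the 3 control livers, a scaled ratio of 7.13 with an exact 95% interval of 2.92 to 22.6 for counting error only. It passed the filter on low counts through brain alone.

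Scaling between such unlike tissues decided part of this. With TMM factors the median gene stood at 0.20 in control brain against control liver, and with library totals alone, an alternative chosen after the data were seen, at 1.30. With library totals Hmgn3 stood at 5.04, Hmgn5 at -2.05 and Hmgn1 at -0.51, each with the same sign. Because library totals moved the genes up, the sign of Hmgn3 could not change. Hmgb1 and Hmgb2 took the opposite sign at 0.09 and 0.21, and Hmgn2 and Hmgb3 stood at 1.47 and 1.32. Hmgb1 and Hmgb2 stood below the median gene under both scalings. A change of scaling moves all genes nearly alike, so that likeness was given in advance and nothing is read from it.

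**Figure D5:**
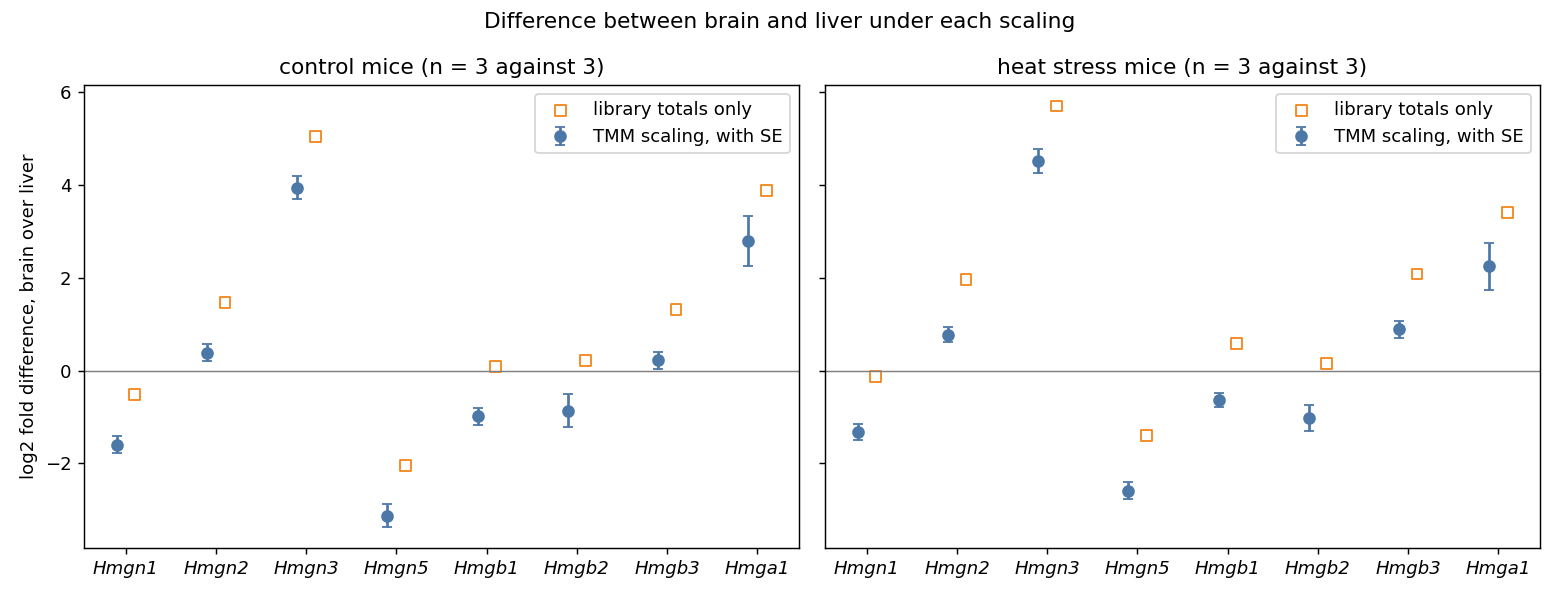
Filled points give the log2 difference of brain over liver with TMM factors and its SE, and open squares the same with library totals only, for control mice (left) and heat stress mice (right). Hmgn3 and Hmga1 lie above 0 and Hmgn5 below 0 under both scalings in both panels, while Hmgb1 and Hmgb2 change sign between the scalings. Library totals move the genes up nearly alike, so values above 0 with TMM factors could not change sign.

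The heat stress mice are other animals, but their brain values are those for which the set was chosen, so the tissue difference in them is again a description. Over all genes tested, 43.1% were called higher and 37.9% lower in brain by edgeR at an adjusted p under 0.05. Hmgn3 stood at 4.51 (SE 0.26), Hmgn5 at -2.59 (SE 0.18), Hmgn1 at -1.33 (SE 0.17), Hmgb1 at -0.63 (SE 0.15) and Hmgb2 at -1.03 (SE 0.28), each with the sign it had in the control mice. Hmgn2 stood at 0.77 (SE 0.17) and Hmgb3 at 0.89 (SE 0.18). With library totals only, Hmgn1 stood at -0.12, and Hmgb1 and Hmgb2 took the opposite sign at 0.58 and 0.16, so the direction of these 2 genes rests on the scaling. With the same scaling Hmgn2 stood at 1.97, Hmgb3 at 2.08, Hmgn3 at 5.70 and Hmgn5 at -1.40. Hmga1 had 54 counts in the brains and 6 in the livers, a scaled ratio of 5.23 (exact 95% interval 2.25 to 14.9). Here too it passed the filter on low counts through brain alone.

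Other chromatin genes were compared between control brain and control liver, where 42.8% of all genes were called higher and 35.5% lower in brain, so that most genes of any kind were called. The counts below include genes that passed the low-count filter through 1 tissue alone and so had to differ, among them H1f10, Tox2, Hmga2-ps1 and Chaf1b. They also rest on TMM factors, with the median gene at 0.20 against 1.30 with library totals, and were not made again with library totals. Of the linker histones, 1 was higher and 2 lower in brain of 3 tested: H1f2 had a log2 difference of -1.75 (SE 0.25, adjusted p = 0.000145 by edgeR), whereas H1f10 was at 0.0725 CPM in liver. Of 8 histone variants, 2 were higher, among them Macroh2a2 (3.14, SE 0.28, adjusted p = 5.16e-06 by edgeR), and 5 lower, among them H2aj (-1.38, SE 0.19, adjusted p = 1e-04 by edgeR), which with library totals only stood at -0.29 and did not pass. Of the 16 further HMG-box and HMGA genes tested, 8 were higher and 4 lower. The repressor Cic (2.33, SE 0.22, adjusted p = 7.73e-06 by edgeR) and Tox2, at 19.0 CPM in brain and 0.103 in liver, were among the higher ones, while Hmg20b was lower (-1.71, SE 0.21, adjusted p = 3.88e-05 by edgeR). Hmgxb3 (0.81, SE 0.22, adjusted p = 0.00642 by edgeR) was higher, Hmga2-ps1 had 1 to 3 counts in a liver library, and Hmgxb4 (0.41, SE 0.18, adjusted p = 0.064 by edgeR) did not pass, though it did with upper quartile factors (0.48) and with library totals. Of 15 histone chaperones and remodelling partners tested, 4 were higher and 6 lower, with Anp32e at 1.58 (SE 0.23) and Chaf1b at -3.01 (SE 0.39). Over the alternatives that kept all libraries, library totals among them, H1f2 ran from -1.75 to -0.65 and Hmg20b from -1.71 to -0.61. Hmgxb3 ran from 0.81 to 1.92, Anp32e from 1.59 to 2.70 and Chaf1b from -3.03 to -1.92, each with the same sign. For Hmgxb3 and Anp32e, library totals could not change the sign.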

How the data were processed

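The authors trimmed the paired reads with Trimmomatic 0.39 after FastQC 0.11.9, aligned them to mm10 with HISAT2 2.2.1 and counted genes with featureCounts (Subread 2.0.1); the study's methods also describe another pipeline with Tophat2 and HTSeq, and these steps are the ones in the submitters' processing notes. The deposited values are raw counts per gene symbol. All 12 count columns were mapped to samples, 0 columns of samples were unused, and columns with the authors' own comparisons (fold changes and p-values) were not used. Genes passed filterByExpr (10 counts, 15 in total), were scaled with TMM and tested with edgeR 4.0.16's quasi-likelihood test on the 6 libraries of a comparison (12 for the difference between tissues), with Benjamini-Hochberg adjustment and a threshold of 0.05, in R 4.3.3. The fit was tested on simulated data. The authors used DESeq2 1.22.2; here DESeq2 1.42.0 served as an alternative, besides RLE and upper quartile factors, other filters, leaving out libraries, a replicate block, all libraries in 1 fit, length and GC correction, the suffix 2nd as a term and library totals. Length and GC content were known for 96.5% of symbols. The copies were found by BLAST at 95% identity over 100 bases. CPM used TMM factors within a tissue, or over both for levels per kilobase of the longest coding transcript. The members and gene lists were chosen with earlier results of these data known. For the members, the comparisons that hold brain libraries were fitted in the same way and are given without their p-values. From each list up to 4 genes with the smallest p per comparison could be named, and the 5 genes most like Hmgn2 among those with a mean of at least 10 CPM.

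Same-numbered control brain and liver libraries deviated together (r = 0.353, 0.339 and 0.113). Those of the heat stress tissues (0.049, -0.195 and 0.037) and of control with heat stress did not. The labels do not say that equal numbers are 1 mouse, and so few values of r cannot settle it. The main fits, with their brain against liver and interaction p-values, paired no libraries. A replicate block in control brain against control liver was an alternative (below). No setting of the interaction test paired brain with liver. Nothing in the labels says more of the replicates than 3 mice a group, and p-values measure the spread between these libraries. Counting intervals cover counting error only. The result on 1 further HMG-box gene is not reported here.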

Additional observations from a re-analysis of the deposited data

Results flagged for a closer look

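Tfrc, the transferrin receptor that brings iron into cells, is no member and was the 1 gene whose heat effect differed between the tissues by the interaction test over all 12 libraries. Its log2 fold change was 0.36 (SE 0.11) in brain and -1.47 (SE 0.22) in liver, a liver minus brain difference of -1.84 (SE 0.24, adjusted p = 0.049 by edgeR's quasi-likelihood test). The call was lost under several other settings, given below.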

How the results depend on the processing

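In liver, 0 members passed the threshold under every alternative run. Counts over all genes were less stable. In brain they went from 0 to 616 with DESeq2. In liver they went from 0 to 2 with upper quartile factors, 8 without a filter, 66 with DESeq2, 1 with a replicate block, 14 with all 12 libraries in 1 fit, 19 with the length and GC correction, 6 with the suffix 2nd as a term, 81 without both libraries that held muscle transcripts, and 0 to 25 leaving out 1 library (25 without control replicate 1). For the difference between the tissues, where Tfrc alone passed (named after its value was seen), the count was 0 with RLE, with upper quartile factors, without a filter and with the replicate block, 44 with DESeq2, and 0 to 4 leaving out 1 library (4 without liver control replicate 1). The cause was not tested. The replicate block changed the call of no member in liver; with it Hmgn2 stood at 0.61 in brain and 0.14 in liver, and control brain against control liver had 12106 calls in place of 11915.

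Values of members near 0 in liver changed sign. Hmgn1 was -0.09 with the suffix term and -0.14 to 0.19 leaving out 1 library, Hmgn2 -0.03 without the libraries with muscle transcripts and -0.04 to 0.26, and Hmgb1 0.06 with the length and GC correction and -0.24 to 0.03. In brain, Hmgxb3 was 0.01 with that correction and Hmga2-ps1 -0.05 to 0.39 leaving out 1 library. With library totals only, brain against liver became 0.09 for Hmgb1 and 0.21 for Hmgb2 in control mice and 0.58 and 0.16 in heat stress mice. Of 1169 values under alternatives, 1094 kept their direction and side of the threshold or, with no test, moved by less than 1 SD (counts by at most 1.5 times). Another 41 moved by more. Among these were Hmgn2 (0.61 to 0.27), Hmgb3 (0.60 to 0.38) and Hmgb1 (0.36 to 0.08) in brain with the length and GC correction. Hmgn3 and Hmgn5 in brain were also among them and changed sign with that correction. Of the rest, 15 changed sign, 10 passed the threshold only there and 9 no longer passed. Adding the counts of Hmgb1-rs17 to Hmgb1 and of Hmga1b to Hmga1 moved no member's log2 value; Hmga2-ps1 was not added, since Hmga2 is no member. Depth limits Hmga1 and, in liver, Hmgn3.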
